A study of Homo sapiens with 9 samples.

Results

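The 59 genes described here encode the machinery of DNA replication and targets and members of the E2F family of transcription factors. They were picked by symbol from the 27315 gene entries of the deposited expression table, all 59 were found, and all 59 were among the 13165 genes with enough signal to be tested. Polyadenylated RNA was sequenced in pairs of 100-base reads from MDA-MB-468, a widely used human cell line from a triple-negative breast cancer. The cells carried a scrambled control hairpin, the BBOX1 hairpin sh1 or the BBOX1 hairpin sh6, with 3 libraries in each of the 3 groups. The target sequence of sh1 is stated in the labels' protocol, and that of sh6 is not given there. BBOX1 encodes gamma-butyrobetaine dioxygenase, the last enzyme of carnitine synthesis, and the study asks what its loss does to these cells. Every group, the control included, had been infected with pLKO.1 lentivirus packaged in 293T cells and kept under the drug that matches the vector's marker. A single cell line was used, and the labels do not tell whether replicate libraries stem from separate infections or cultures. The p-values below therefore measure only the spread between libraries, which may be technical.

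Before S phase, the origin recognition complex with CDC6 and CDT1 loads the ring-shaped MCM2 to MCM7 helicase onto DNA, and CDC7, CDC45 and the GINS complex later switch that helicase on. Polymerases alpha, delta and epsilon then copy the strands with the PCNA clamp, its RFC loaders and the single-strand binding complex RPA, while other enzymes supply deoxynucleotides and rebuild chromatin. E2F factors bind the promoters of many of these genes and raise their transcription as cells pass from G1 into S phase, and the retinoblastoma family holds them back. MDA-MB-468 is known for lacking functional RB1. In RNA from bulk cultures, a smaller share of cells in S phase and less RNA per cell cannot be told apart.

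Promoter windows of 300 bases, from 250 before to 50 after each annotated start, were available for 50 of the 59 genes from RefSeq on GRCh38.p14. They were searched on both strands for the E2F words TTTCCCGC, TTTGGCGC, TTTCGCGC and TTTGCCGC. Of the 50 genes, 26 held at least 1 match (52.0%), against 3.99% of 27305 genes searched in the same way. The genes were listed in part as E2F targets, so this contrast reflects how the list was made. The genes searched also include many that were not tested here. Counted by window, 42.2% of the 64 windows of these genes and 3.31% of all 35116 windows held one. The 36 matches lay between 183 bases before and 11 bases after a start, and 29 of them were within 100 bases of it. Overlapping matches on opposite strands occurred in MCM2, MCM6 and TIPIN and are counted as separate matches. No window was matched for MCM4, MCM5, GINS4, POLD3, DSCC1, RPA2, RPA3, CCNE2 and E2F8. A match is a string of letters, and binding was not measured.

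The windows of 4 genes whose RNA moved in different ways are shown because they carry the word in different positions and orientations. E2F1 (chr20:33686336-33686635, minus strand) has 2 matches, and its RNA rose with either hairpin and more with sh1. CDC25A (chr3:48188368-48188667, minus strand), CLSPN (chr1:35769929-35770228, minus strand) and POLE (chr12:132687293-132687592, minus strand) have 1 match each. CDC25A rose with either hairpin, CLSPN rose most with sh6, and POLE fell with sh1 and rose with sh6. Each window is written 5′ to 3′ on the strand of the gene, with the E2F words in capitals.
E2F1: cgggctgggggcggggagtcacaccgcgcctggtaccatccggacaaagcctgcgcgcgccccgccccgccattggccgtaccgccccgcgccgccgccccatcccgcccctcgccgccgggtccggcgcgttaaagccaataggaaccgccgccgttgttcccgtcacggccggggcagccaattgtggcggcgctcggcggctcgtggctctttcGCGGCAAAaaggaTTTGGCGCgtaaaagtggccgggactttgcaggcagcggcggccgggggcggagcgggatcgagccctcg
CDC25A: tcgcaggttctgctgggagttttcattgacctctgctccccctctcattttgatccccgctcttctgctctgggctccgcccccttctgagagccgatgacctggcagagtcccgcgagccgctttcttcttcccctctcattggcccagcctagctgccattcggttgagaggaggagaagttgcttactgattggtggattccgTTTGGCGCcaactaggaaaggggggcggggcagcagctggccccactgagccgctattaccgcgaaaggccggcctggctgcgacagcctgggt
CLSPN: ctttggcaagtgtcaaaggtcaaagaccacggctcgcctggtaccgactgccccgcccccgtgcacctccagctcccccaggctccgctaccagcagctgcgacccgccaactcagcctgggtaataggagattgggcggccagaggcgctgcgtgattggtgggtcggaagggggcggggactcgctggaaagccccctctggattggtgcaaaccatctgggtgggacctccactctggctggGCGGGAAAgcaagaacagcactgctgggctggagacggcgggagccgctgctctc
POLE: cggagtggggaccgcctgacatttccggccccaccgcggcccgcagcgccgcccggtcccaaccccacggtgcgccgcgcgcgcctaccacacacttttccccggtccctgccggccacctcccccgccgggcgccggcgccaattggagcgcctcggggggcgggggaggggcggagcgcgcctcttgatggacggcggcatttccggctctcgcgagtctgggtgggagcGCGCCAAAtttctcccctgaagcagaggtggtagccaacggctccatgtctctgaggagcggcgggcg

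Shorter stretches, the word in capitals with 10 bases on each side, show some matches of loading, helicase and chromatin genes. The likeness of the words follows from the search for fixed words. Other matches, such as those of MCM6 and the further ones of MCM3, MCM7 and UHRF1, are not shown. MCM2, MCM3 and MCM7 share TTTCGCGC on the strand of the gene close to the annotated start. DNMT1 has the same word on the opposite strand. GINS3 and UHRF1 carry TTTCCCGC on the opposite strand, and CDC6 carries TTTGGCGC.
MCM2, match at chr3:127598413-127598420, gene on the plus strand: gtgaaccactTTTCGCGCgaaacctggt
MCM3, match at chr6:52284739-52284746, gene on the minus strand: gttcggaagtTTTCGCGCcggggtggag
MCM7, match at chr7:100101399-100101406, gene on the minus strand: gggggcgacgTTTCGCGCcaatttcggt
DNMT1, match at chr19:10194948-10194955, gene on the minus strand: atcggtttccGCGCGAAAagccggggcg
GINS3, match at chr16:58392466-58392473, gene on the plus strand: gtccccgggcGCGGGAAAcgagtttcaa
UHRF1, match at chr19:4909487-4909494, gene on the plus strand: ccgagttttcGCGGGAAAaaaatcagag
CDC6, match at chr17:40287886-40287893, gene on the plus strand: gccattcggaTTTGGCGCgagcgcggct

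**Figure D1:**
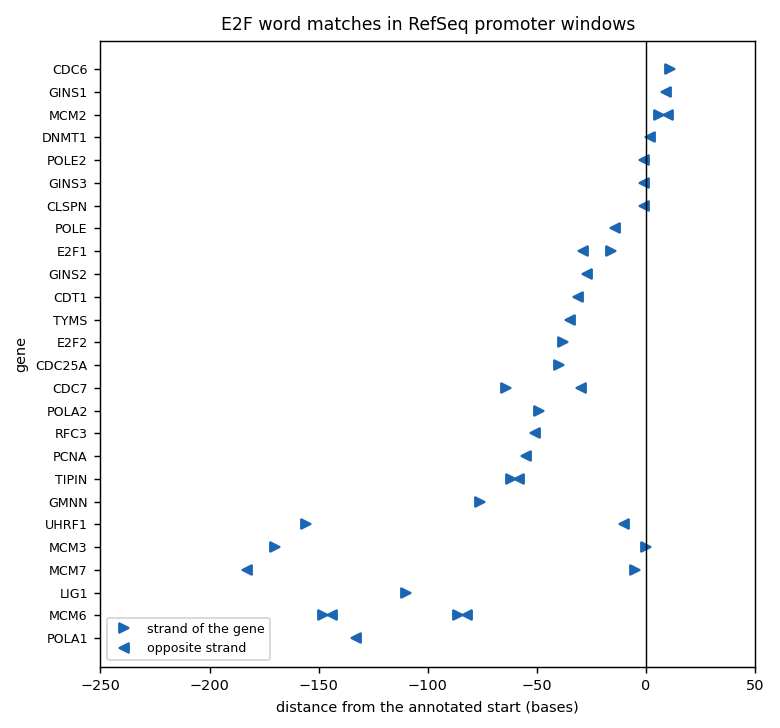
Distance in bases from the annotated start (horizontal axis) of each E2F word match in the RefSeq promoter windows of the 26 genes that held one (rows). Right-pointing marks are on the strand of the gene and left-pointing marks on the opposite strand, and 29 of the 36 marks lie within 100 bases of the start.

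Genes with and without the word were both among those that rose. Of the 26 genes with a match, 16 rose and 2 fell with sh6, and 9 rose and 6 fell with sh1. Of the 24 with a window and no match, 11 rose and 0 fell with sh6, and 7 rose and 5 fell with sh1. Over all tested genes, 34.2% rose and 33.6% fell with sh6, and 29.0% rose and 30.0% fell with sh1. The median log2 change with sh6 was 0.31 in the first set and 0.13 in the second, a difference that was not tested. The CCAAT word, read on both strands, was present in 29 of the 50 genes (58.0%) and in 39.7% of all genes searched. The words TTTGAA and TTTCGAA, the core of an element of late cell cycle promoters, were present in 2 of the 50 (4.0%) and in 18.7% of all.

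The targeted gene was low in every hairpin library. BBOX1 stood at normalised counts of 2703, 2785 and 2359.8 in the control, 324, 346 and 328 with sh1 and 606, 618 and 581 with sh6. Its log2 change was -2.76 with sh1 (limma, Benjamini-Hochberg adjusted p = 3.73e-25) and -2.01 with sh6 (adjusted p = 6.15e-22). For each hairpin an exact two-sided permutation test gave p = 0.1, the smallest value that 3 libraries against 3 allow. BBOX1 was 1.81-fold higher with sh6 than with sh1. Depth, recovered from the steps of the values, ran from 16727862 to 19741646 reads in the control libraries, from 15736008 to 16220959 in the sh1 libraries and from 16041340 to 18863458 in those of sh6. All 11 basal and epithelial markers checked were present, led by EGFR, and PGR was at 0 in every library while ESR1 and ERBB2 were detected. Of the markers of fibroblasts, leucocytes and endothelium, 5 of 6, 4 of 5 and 4 of 5 had a mean count under 16. Summed leucocyte markers ran from 202 to 234 in the control, 87.1 to 97.6 with sh1 and 147 to 152 with sh6, nearly all of it CD68. Summed endothelial markers, mostly KDR, ran from 237 to 267 in the control, 86.2 to 117 with sh1 and 88.4 to 113 with sh6. The summed receptors ESR1, PGR and ERBB2 ran from 1285 to 1369 in the control, 978 to 1018 with sh1 and 683 to 753 with sh6. The part of these markers in the results was not tested.

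Many of the replication and E2F genes rose with sh6, and with sh1 some rose and others fell. With sh6, 32 of the 59 (54.2%) rose and 4 (6.78%) fell, whereas 34.2% of all tested genes rose and 33.6% fell. With sh1, 17 rose (28.8%, against 29.0% of all genes) and 13 fell (22.0%, against 30.0%), so the share that rose was at the background. For the mean of both hairpins 27 rose and 10 fell, with backgrounds of 32.3% and 33.1%. Here rose and fell mean a Benjamini-Hochberg adjusted p under 0.05 in limma, fitted on all 13165 genes and all 9 libraries. The median log2 change of the 59 genes was 0.01 with sh1 and 0.18 with sh6, where the medians of all tested genes were 0.00 and 0.01. The 9 libraries can be followed gene by gene in the heat map, where the block of sh6 columns is mostly red and the sh1 columns are mixed.

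**Figure D2:**
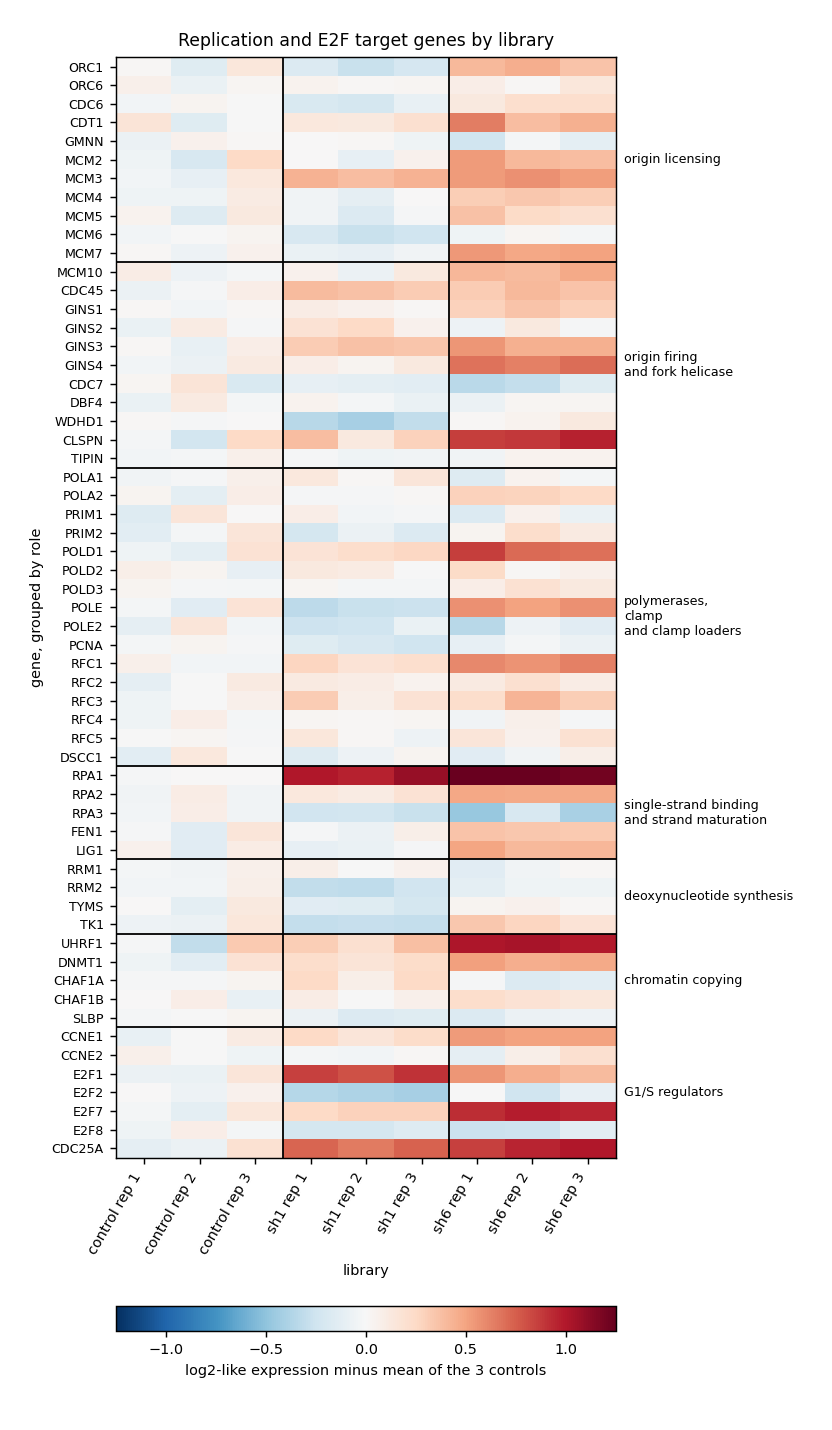
Log2-like deposited expression of each of the 59 genes (rows, grouped by role) in each of the 9 libraries (columns), minus the mean of the 3 control libraries. Red is above and blue below that mean, and the sh6 columns are red for the 32 genes that rose while the sh1 columns hold 17 genes that rose and 13 that fell.

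The count of groups without overlap was lower for the rises with sh1 than the count of calls. The 3 sh6 libraries all lay above the 3 controls for 34 of the 59 genes (34.6% of all tested genes) and below them for 5 (33.9%). The 3 sh1 libraries lay above the controls for 12 of the 59 (20.3%, against 31.7% of all tested genes) and below them for 13 (22.0%, against 32.4%). All 6 hairpin libraries lay above the controls for 11 (18.6%, against 19.9%) and below them for 5 (8.47%, against 20.5%). The control libraries differed among themselves: the third was the highest of the 3 for 34 of the 59 genes, where it was the highest for 38.5% of all tested genes. The second was the lowest for 28 of the 59, where it was the lowest for 36.6% of all tested genes. The median coefficient of variation of the 59 genes was 6.50% in the control, 3.39% with sh1 and 4.03% with sh6. Over all tested genes it was 6.84%, 5.05% and 6.51%. Among the 59 genes the largest control value was that of UHRF1, 24.9%. Leaving out the second control library lowered the rises with sh1 from 17 to 13.

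**Figure D3:**
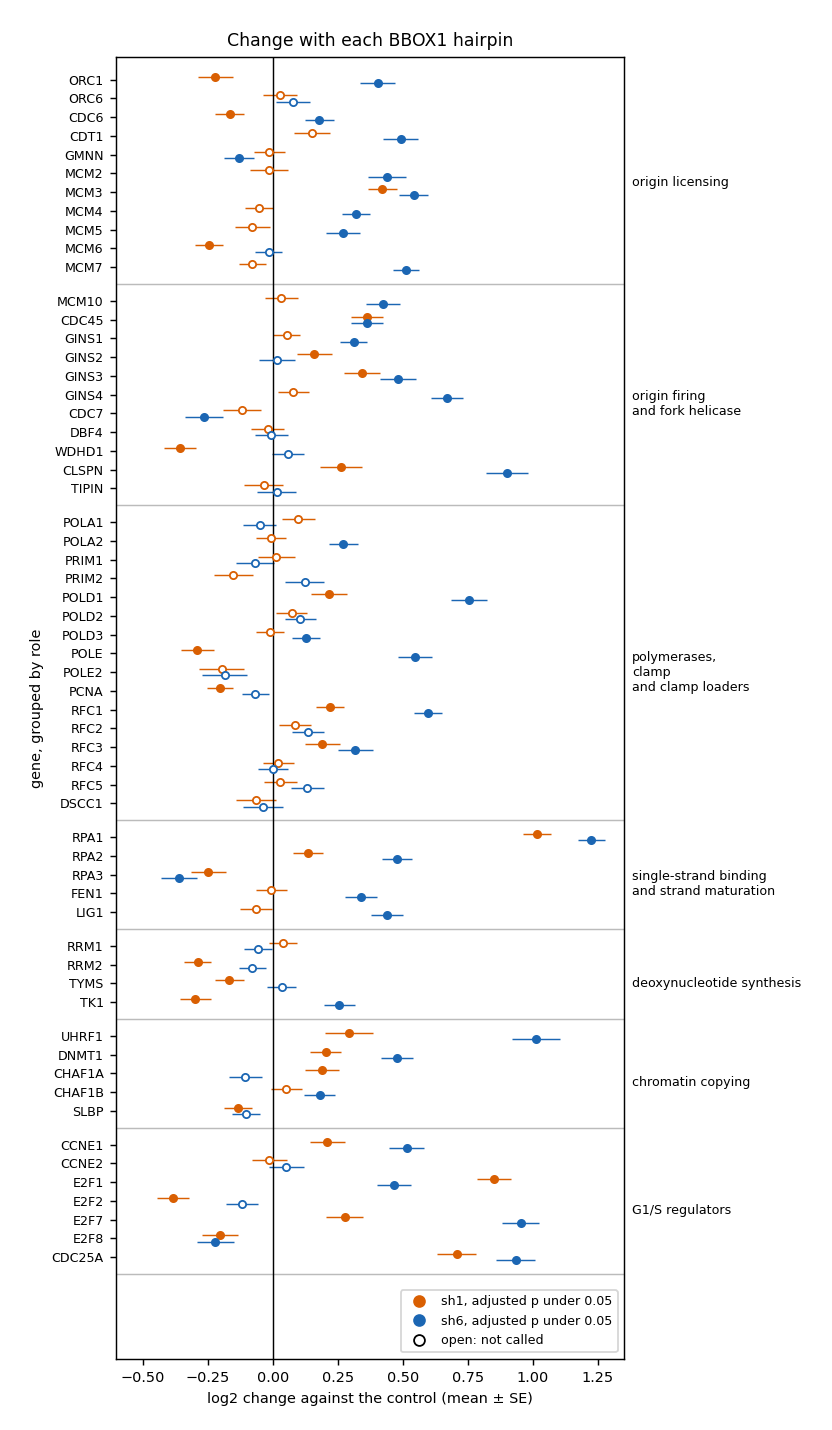
Log2 change against the control with its standard error (horizontal axis) for each of the 59 genes (rows, grouped by role), with sh1 in orange and sh6 in blue. Filled points passed an adjusted p under 0.05 (17 higher and 13 lower with sh1, 32 higher and 4 lower with sh6), and RPA1 lies farthest to the right with both hairpins.

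Among the regulators of the step from G1 into S phase, E2F1, E2F7, CDC25A and cyclin E1 rose with each hairpin and E2F8 fell. E2F1, an activating E2F factor, was at 738, 729 and 873 normalised counts in the control, 1459.8, 1394 and 1504 with sh1 and 1171, 1089 and 1039 with sh6. All 6 hairpin libraries lay above all controls, and the sh1 libraries lay above the sh6 libraries. The rise was 1.86-fold with sh1 (log2 0.85 ± 0.066 SE, limma adjusted p = 1.88e-12) and 1.41-fold with sh6 (log2 0.47, adjusted p = 2.9e-07), and sh6 stood below sh1 by a log2 of -0.38 (adjusted p = 1.02e-05). CDC25A, a phosphatase that activates the cyclin-dependent kinases of S phase entry, was at 325, 337 and 415 in the control, 629.6, 596 and 637 with sh1 and 693, 747 and 774 with sh6. The groups did not overlap, with sh6 highest. CDC25A rose 1.73-fold with sh1 (log2 0.71, adjusted p = 1.54e-09) and 2.06-fold with sh6 (log2 0.93, adjusted p = 2.29e-12).

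E2F7 and E2F8 are the atypical E2F factors that repress E2F targets, and they moved apart. E2F7 stood at 345, 318 and 395 counts in the control, 431, 444 and 442 with sh1 and 721, 753 and 739.7 with sh6. Its libraries formed 3 separate levels, with changes of 1.24-fold for sh1 (log2 0.28, adjusted p = 0.00133) and 2.09-fold for sh6 (log2 0.95, adjusted p = 5.13e-13). E2F8 was at 468, 523 and 479 in the control, 411, 412 and 430.1 with sh1 and 395, 400.1 and 440.0 with sh6. Its hairpin libraries were all below its controls. The log2 change was -0.20 for sh1 (adjusted p = 0.0147) and -0.22 for sh6 (adjusted p = 0.00681). The sh1 call of E2F8 was lost without the second control library (log2 -0.16).

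CCNE1, which encodes cyclin E1, the partner of CDK2, was at 430.2, 462 and 503 in the control, 564, 524 and 553 with sh1 and 702, 686 and 682 with sh6. The 3 groups were again separate, with a log2 change of 0.21 for sh1 (adjusted p = 0.00853) and 0.51 for sh6 (adjusted p = 7.8e-08). The sh1 call was lost without the first control library (log2 0.16). CCNE2, which encodes the second cyclin E, overlapped in all 3 groups, with log2 changes of -0.01 and 0.05. In GENCODE release 29, 37.0% of its exon bases lie under exons of INTS8 on the other strand. E2F2, another activating E2F factor, was at 1603, 1522 and 1664 in the control, 1236, 1203 and 1184 with sh1 and 1587, 1335 and 1479 with sh6. Only the sh1 libraries stood clear of the controls, 1.32-fold lower (log2 -0.38, adjusted p = 2.91e-06), and E2F2 was higher with sh6 than with sh1 by 0.27 (adjusted p = 4.15e-04).

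**Figure D4:**
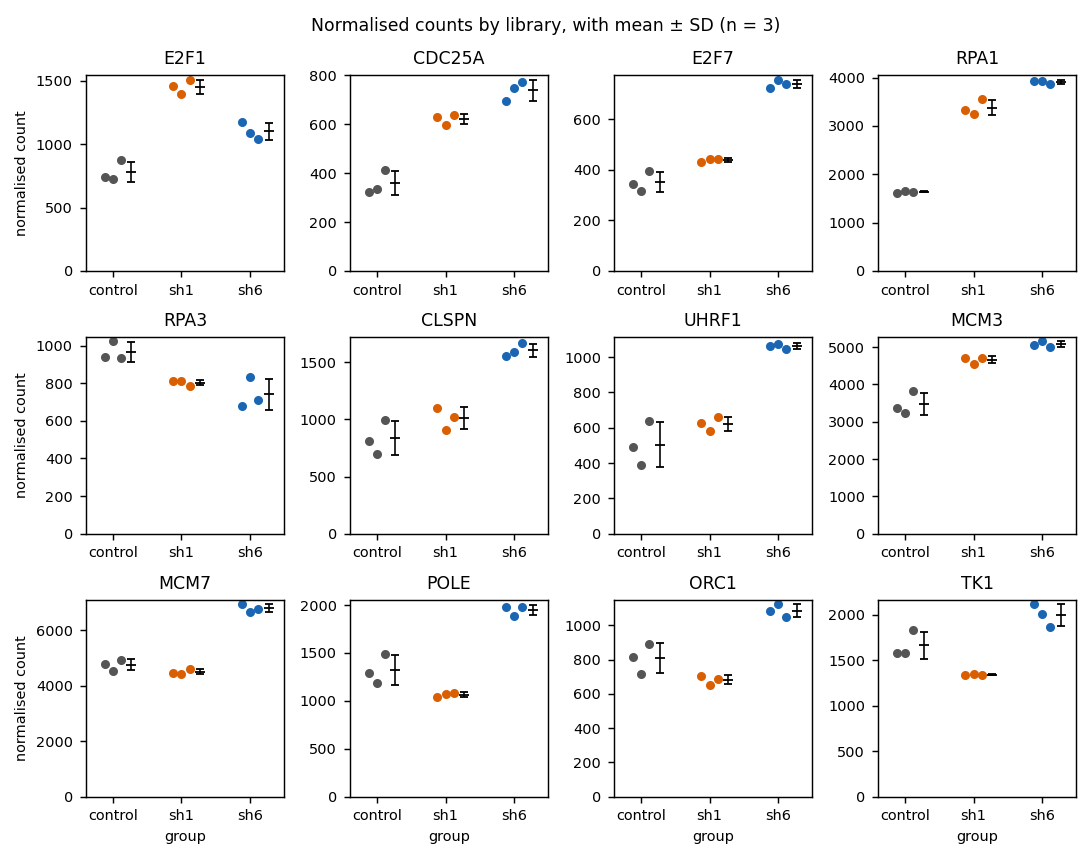
Normalised counts (vertical axes, each from 0) of 12 of the 59 genes in the 3 control, 3 sh1 and 3 sh6 libraries, with the mean and SD of each group (n = 3) beside its points. E2F1 is highest with sh1, RPA1 stands at 3240.3 to 3934 in the hairpin libraries, and POLE, ORC1 and TK1 lie below the control with sh1 and above it with sh6.

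Of the 11 genes of origin licensing, 8 rose with sh6 (72.7%, against 34.2% of all tested genes) and 1 fell (9.09%, against 33.6%). With sh1, 1 rose (9.09%, against 29.0%) and 3 fell (27.3%, against 30.0%), so the share that fell was near the background. The MCM2 to MCM7 helicase carried much of the rise with sh6: 5 of its 6 subunits rose with sh6, and only MCM3 rose with sh1. MCM3 was at 3379, 3227 and 3812 in the control, 4709.9, 4557 and 4718 with sh1 and 5043, 5162 and 5009 with sh6. Every hairpin library was above every control, and the log2 change was 0.42 for sh1 (adjusted p = 1.16e-07) and 0.54 for sh6 (adjusted p = 5.57e-10). MCM7 was at 4794, 4546 and 4942 in the control, 4476, 4432 and 4607 with sh1 and 6966, 6681 and 6784 with sh6. Its sh1 libraries overlapped the controls and its sh6 libraries stood apart, 1.43-fold higher (log2 0.51, adjusted p = 2.78e-10).

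MCM2, MCM4 and MCM5 followed MCM7, with log2 rises of 0.44, 0.32 and 0.27 for sh6 and changes of -0.01, -0.05 and -0.08 for sh1 that did not pass the test. MCM2 varied most in the control, at 1969, 1776 and 2438, and 22.7% of its exon bases lie under an unnamed antisense gene. MCM6 fell with sh1 and did not rise with sh6: it was at 2622, 2674 and 2760.2 in the control, 2323, 2197 and 2252 with sh1 and 2592, 2733 and 2647 with sh6. Its sh1 libraries were all below the controls (log2 -0.24, adjusted p = 1.82e-04) and its sh6 libraries overlapped them. Like MCM2, MCM4, MCM5 and MCM7, it was higher with sh6 than with sh1 (log2 0.23, limma adjusted p = 3.69e-04). The 6 proteins form 1 ring in equal numbers. Per kilobase of exon, control RNA ran from 197 normalised counts for MCM5 and 420.5 for MCM2 to 951 for MCM3 and 1085 for MCM7. These values depend on the annotated exon lengths, 7338 bases for MCM5 and 4386 for MCM7, and protein was not measured. With sh6 MCM7 stood at 1553 per kilobase and MCM5 at 239.

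The loaders of the helicase included 2 of the 4 genes that fell with sh1 and rose with sh6. ORC1, the largest subunit of the origin recognition complex, was at 815, 716 and 892 in the control, 707, 653 and 688 with sh1 and 1086, 1124 and 1047 with sh6. The sh1 libraries lay below the controls and the sh6 libraries above them, with a log2 change of -0.22 (adjusted p = 0.00627) in the one and 0.40 (adjusted p = 4.94e-06) in the other. The fall with sh1 was no longer called without the third control library (log2 -0.15). CDC6, the loader that joins ORC at origins, was at 1787, 1877 and 1819.9 in the control, 1597, 1565 and 1712 with sh1 and 1991, 2125 and 2117 with sh6. The groups did not overlap, with changes of -0.16 (adjusted p = 0.0116) and 0.18 (adjusted p = 0.00538), and the sh1 call was lost without the second sh1 library (log2 -0.14).

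CDT1, which brings the helicase to the loader, was at 1542, 1228 and 1370.4 in the control, 1509, 1498 and 1592 with sh1 and 2179, 1815 and 1897 with sh6. Only its sh6 libraries were clear of the controls (log2 0.49, adjusted p = 2.54e-07), and its change of 0.15 with sh1 passed in 6 of 20 alternative settings and not in the one reported. Geminin (GMNN), the inhibitor of CDT1, overlapped between the groups and was the weakest call of the set: its log2 change of -0.13 with sh6 (adjusted p = 0.0476) was lost in 14 of 20 alternatives, and without the first sh6 library it was -0.07. ORC6, another ORC subunit, stayed between 568 and 671 counts in all 9 libraries and passed no test.

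Of the 11 genes of origin firing and the fork, 6 rose with sh6 (54.5%, against 34.2% of all tested genes). With sh1, 4 rose (36.4%, against 29.0%). With each hairpin 1 fell (9.09%, against 33.6% for sh6 and 30.0% for sh1). CLSPN, the claspin adaptor that links the fork to the checkpoint kinase CHEK1, was at 815, 700.0 and 996 in the control, 1099, 906 and 1024 with sh1 and 1556, 1585 and 1668 with sh6. Its sh6 libraries stood far above the others, 1.92-fold over the control (log2 0.90, adjusted p = 2.8e-11), while sh1 overlapped the control (log2 0.26, adjusted p = 0.00592). The sh1 rise was not called without the second control library (log2 0.15) or without the first sh1 library (log2 0.20). CDC45, the helicase activator, was at 823, 863 and 925 in the control, 1164, 1142 and 1101 with sh1 and 1101, 1175 and 1132 with sh6. The hairpin groups overlapped each other and lay above the control, with the same log2 change of 0.36 for sh1 (adjusted p = 5.56e-06) and sh6 (adjusted p = 4.01e-06).

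GINS is a complex of 4 subunits, and its genes did not move as 1 unit. GINS4 was at 893, 866 and 998 in the control, 972, 942 and 1005 with sh1 and 1508, 1454 and 1525 with sh6, a rise with sh6 alone of 0.67 on the log2 scale (adjusted p = 4.35e-11). An unnamed antisense gene covers 21.2% of its exon bases. GINS3 was at 417, 383 and 439 in the control, 528, 547 and 542 with sh1 and 632, 585 and 583 with sh6. It rose with each hairpin, by 0.34 (adjusted p = 7.73e-05) and 0.48 (adjusted p = 3.23e-07). GINS1 rose with sh6 by 0.31 (adjusted p = 5.87e-06). GINS2 passed against the control only with sh1, at 0.16 (adjusted p = 0.0441), with overlapping libraries. That call was lost in 6 of 20 alternatives, among them without the first control library and the second sh1 library (log2 0.12 each). The difference of GINS2 between the hairpins did not pass (sh6 against sh1, log2 -0.14, limma adjusted p = 0.0689).

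MCM10, which helps the helicase leave the origin, rose with sh6 by 0.42 (adjusted p = 9.21e-07) and was at 0.03 with sh1. CDC7, the kinase that triggers firing, was at 859, 952 and 734 in the control, 784, 773 and 762 with sh1 and 656, 673 and 753 with sh6. The third control library overlapped the sh6 group, and the fall with sh6 was 1.22-fold (log2 -0.26, adjusted p = 0.00217). DBF4, its activating partner, was between 916 and 1061 in all libraries and passed no test. WDHD1, a fork protein that couples the helicase to polymerase alpha, was at 829.8, 812 and 827 in the control, 635, 604 and 652 with sh1 and 834, 849.9 and 898 with sh6. Its sh1 libraries were all well below the rest (log2 -0.35, adjusted p = 1.14e-05), and sh6 stood above sh1 by 0.41 (adjusted p = 9.72e-07). TIPIN, of the fork protection complex, ran from 265 to 290.2 across all libraries, with overlapping groups.

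Of the 16 genes of polymerases, clamp and clamp loaders, 6 rose with sh6 (37.5%, against 34.2% of all tested genes). The share that rose with sh6 was thus near the background, while 0 fell (33.6% of all). With sh1, 3 rose (18.8%, against 29.0%) and 2 fell (12.5%, against 30.0%). The other 10 with sh6 and 11 with sh1 passed no test. POLE, the catalytic subunit of polymerase epsilon, was at 1286, 1185 and 1487 in the control, 1038, 1071 and 1083 with sh1 and 1980.0, 1887 and 1979.9 with sh6. The 3 groups did not overlap, with sh1 lowest and sh6 highest. The changes were 1.24-fold lower with sh1 (log2 -0.29, adjusted p = 2.78e-04) and 1.48-fold higher with sh6 (log2 0.55, adjusted p = 8.84e-09). POLE2, its second subunit, was at -0.20 and -0.18 with overlapping groups, and neither change passed (adjusted p = 0.0516 and 0.0596). The sh1 change of POLE2 was called in 9 of 20 alternatives.

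POLD1, the catalytic subunit of polymerase delta, was at 912, 866 and 1081 in the control, 1072, 1118 and 1149 with sh1 and 1783, 1592 and 1563 with sh6. Its sh6 libraries stood apart, 1.73-fold above the control (log2 0.75, adjusted p = 3.8e-11), and its sh1 libraries overlapped the control (log2 0.22, adjusted p = 0.0073). Without the second control library the sh1 call was lost (log2 0.15). POLD2 and POLD3, accessory subunits of the same polymerase, changed little: POLD2 was at 0.07 and 0.11 and passed no test, and POLD3 was at 0.13 with sh6 (adjusted p = 0.0349), a call lost in 6 of 20 alternatives, with 0.10 as its value without the second sh6 library. Among the 4 subunits of polymerase alpha and primase, which start each strand, only POLA2 rose, by 0.27 with sh6 (adjusted p = 1.15e-04). POLA1, PRIM1 and PRIM2 had log2 changes between -0.15 and 0.12 and passed no test against the control.

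PCNA, the sliding clamp, was at 5937, 6155 and 5972 in the control, 5397, 5228 and 5047 with sh1 and 5599, 5914 and 5736 with sh6. All hairpin libraries lay below all controls, but only the sh1 fall passed (log2 -0.20, adjusted p = 9.23e-04, and -0.07 with sh6, adjusted p = 0.248). After quantile normalisation the sh1 change of PCNA was -0.04 and was not called. Of the 5 RFC genes, which encode the loader of the clamp, RFC1 and RFC3 rose with each hairpin. RFC1 was at 1952, 1825 and 1822 in the control, 2268, 2114 and 2174 with sh1 and 2861, 2776 and 2922 with sh6. Its 3 groups were separate, with changes of 0.22 (adjusted p = 7.76e-04) and 0.60 (adjusted p = 3.62e-11).

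RFC3 was at 846, 874 and 922 in the control, 1115, 932 and 1002 with sh1 and 1038, 1199.5 and 1105 with sh6. Its hairpin libraries were all above its controls, by 0.19 (adjusted p = 0.0148) and 0.32 (adjusted p = 1.12e-04), although the sh1 call was lost without the first control library (log2 0.16) or the first sh1 library (log2 0.13). RFC2, RFC4 and RFC5 had log2 changes between 0.00 and 0.14 and passed no test, and that of RFC2 with sh6 was called in 7 of 20 alternatives. DSCC1, of an alternative clamp loader, was at -0.06 and -0.04 with overlapping groups.

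RPA1 changed more than any other of the 59 genes with sh6 and with sh1, and its partners did not follow it in step. RPA1, the large subunit of the heterotrimer that coats single-stranded DNA, was at 1621, 1647 and 1641 in the control, 3338, 3240.3 and 3552 with sh1 and 3927, 3934 and 3869 with sh6. Its hairpin libraries stood far above tightly grouped controls. The rise was 2.06-fold with sh1 (log2 1.02 ± 0.052 SE, adjusted p = 8.1e-17) and 2.39-fold with sh6 (log2 1.22, adjusted p = 4.89e-19). RPA2 was at 921, 1022 and 922 in the control, 1050.3, 1026 and 1087 with sh1 and 1360.0, 1349 and 1348 with sh6. It rose 1.42-fold with sh6 (log2 0.48, adjusted p = 2.41e-08), and its change of 0.14 with sh1 (adjusted p = 0.0477) was lost in 10 of 20 alternatives, and was 0.11 without the first control library.

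RPA3, the small subunit, was at 939, 1025 and 934 in the control, 809.6, 814 and 787 with sh1 and 677, 835 and 712 with sh6. Its hairpin libraries were all below its controls, by a log2 of -0.25 (adjusted p = 0.00244) and -0.36 (adjusted p = 2.74e-05). Per kilobase of exon the control held 298 normalised counts of RPA1, 473 of RPA2 and 299 of RPA3, and the sh6 libraries held 712, 669.8 and 229. The order of RPA1 and RPA2 thus turned over on this measure, which depends on the annotated exon lengths. FEN1 and LIG1, the flap nuclease and the ligase that finish the lagging strand, rose with sh6 by 0.34 (adjusted p = 1.31e-05) and 0.44 (adjusted p = 3.31e-07) and overlapped the control with sh1.

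Of the 4 enzymes of deoxynucleotide synthesis 3 fell and 0 rose with sh1, where 30.0% of all tested genes fell and 29.0% rose. Of the same 4 enzymes 1 rose and 0 fell with sh6, where 34.2% of all tested genes rose and 33.6% fell. Counts from 4 genes are too small to show whether the group as a whole differed from the background. TK1, the cytosolic thymidine kinase, was at 1584, 1575 and 1832 in the control, 1339, 1344 and 1335 with sh1 and 2117, 2007 and 1870.0 with sh6. The groups did not overlap, with changes of -0.30 (adjusted p = 1.16e-04) and 0.26 (adjusted p = 4.81e-04). RRM2, the small subunit of ribonucleotide reductase, was at 6389, 6358 and 6851 in the control, 5269, 5228 and 5520.5 with sh1 and 5983, 6285 and 6277 with sh6. Its sh1 libraries were lowest (log2 -0.29, adjusted p = 1.67e-05), and its sh6 change of -0.08 did not pass. After quantile normalisation the sh1 change of RRM2 was -0.13 and still called.

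TYMS, the thymidylate synthase, was at 4598, 4194 and 4969 in the control, 4156, 4125 and 3930.1 with sh1 and 4704, 4753 and 4618 with sh6. Its fall with sh1 (log2 -0.17, adjusted p = 0.011) was lost after quantile normalisation (-0.05), without the third control library (-0.11) and without the third sh1 library (-0.14). In the annotation, 39.1% of the TYMS exon bases lie under exons of ENOSF1 on the other strand, and how the authors' counting treated strand was not stated in the sources used here. RRM1, the large subunit of ribonucleotide reductase, was between 3290.4 and 3828 in all libraries, and passed neither test.

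In the genes that copy chromatin and its methylation, UHRF1 and DNMT1 rose together. UHRF1, which reads hemimethylated DNA behind the fork and recruits DNMT1, was at 489, 387 and 637 in the control, 625, 579.6 and 659.6 with sh1 and 1061, 1076 and 1043 with sh6. The sh6 libraries were far above a widely spread control, 2.1-fold (log2 1.01, adjusted p = 4.56e-11), and sh1 overlapped it (log2 0.29, adjusted p = 0.0071). The sh1 value depended on the control libraries, at 0.14 and not called without the second and at 0.46 without the third. DNMT1, the maintenance DNA methyltransferase, was at 12289.7, 11634 and 14500.3 in the control, 14876, 14269 and 14939 with sh1 and 18198, 17436 and 17748 with sh6. It rose 1.39-fold with sh6 (log2 0.48, adjusted p = 3.73e-08), and its rise of 0.20 with sh1 (adjusted p = 0.00473) was lost without the second control library (log2 0.14) and was 0.43 after quantile normalisation.

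CHAF1A and CHAF1B, the large and middle subunits of the chromatin assembly factor that places histones on new DNA, each passed against the control with a different hairpin. CHAF1A was at 831, 833 and 861 in the control, 1013, 886 and 1011 with sh1 and 832, 743 and 763 with sh6. The sh1 group alone lay above the control (log2 0.19, adjusted p = 0.0129), a call lost without the first (log2 0.16) or the third sh1 library (log2 0.16). CHAF1B rose with sh6 by 0.18 (adjusted p = 0.00908, and not called at 0.14 without the third control library) and was at 0.05 with sh1. Its difference between the hairpins did not pass (sh6 against sh1, log2 0.13, limma adjusted p = 0.0678). SLBP, which binds the stem-loop of histone messages, was at -0.13 with sh1 (adjusted p = 0.0319), a call lost in 8 of 20 alternatives, and at -0.10 with sh6, which did not pass. Without the second sh1 library the sh1 value of SLBP was -0.11.

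Where the hairpins differed, most of these genes were higher with sh6. In the direct test of sh6 against sh1, 33 of the 59 (55.9%) were higher with sh6 and 3 (5.08%) lower, where 30.8% of all tested genes were higher and 28.9% lower. The 3 sh6 libraries lay above the 3 sh1 libraries for 36 of the 59 (33.8% of all tested genes) and below them for 3 (31.6%). The median log2 difference was 0.21, against 0.01 over all tested genes. POLE differed most, by a log2 of 0.84 (adjusted p = 1.61e-12), then UHRF1 by 0.72, E2F7 by 0.68, CLSPN by 0.64, ORC1 by 0.62 and MCM7 by 0.59. The 3 genes lower with sh6 were E2F1, CHAF1A (log2 -0.29, adjusted p = 2.44e-04) and POLA1 (log2 -0.15, adjusted p = 0.0466), the last a call lost in 9 of 20 alternatives and at -0.09 without the first sh6 library. In the same libraries BBOX1 was lower with sh1 than with sh6. PCNA, RPA1, RRM2, TYMS, DNMT1 and POLD3 were no longer called higher with sh6 after quantile normalisation, which left 27 of the 33.

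**Figure D5:**
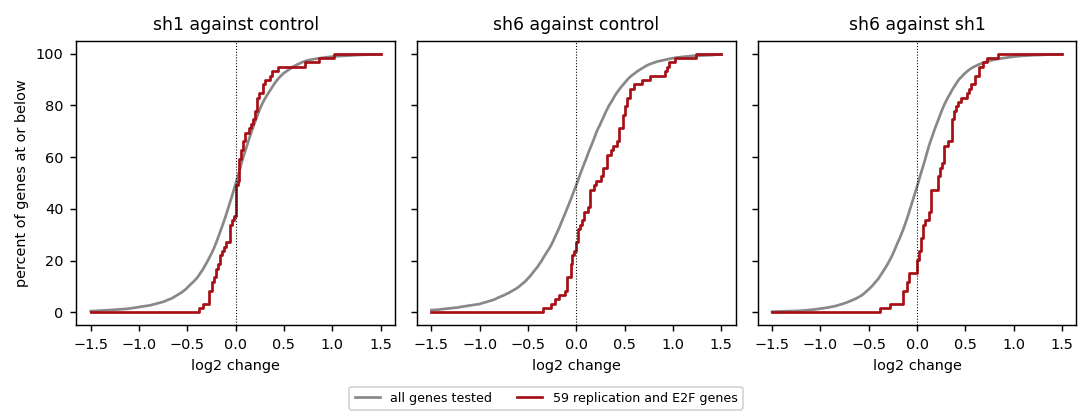
Percentage of genes at or below each log2 change (horizontal axis, from -1.5 to 1.5) for all 13165 tested genes in grey and for the 59 replication and E2F genes in red. The red curve crosses the grey one near 0 with sh1 and runs to its right with sh6 against the control and with sh6 against sh1, with medians of 0.01, 0.18 and 0.21.

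The tests of sh1 and of sh6 share the 3 control libraries, so a gene called in both is not supported by 2 independent observations. By that rule 15 of the genes rose with both (18.9% of all tested genes), namely MCM3, CDC45, GINS3, CLSPN, POLD1, RFC1, RFC3, RPA1, RPA2, UHRF1, DNMT1, CCNE1, E2F1, E2F7 and CDC25A. Without the second control library 11 of them did. RPA3 and E2F8 fell with both (19.4% of all tested genes). ORC1, CDC6, POLE and TK1 fell with sh1 and rose with sh6 (3.33%), and 0 did the reverse (3.06%).

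Other genes of the same pathways, from lists of related factors, give a comparison. Of 24 further replication factors 7 rose (29.2%) and 4 fell (16.7%) with sh6, and 3 rose (12.5%) and 6 fell (25.0%) with sh1. Each of these shares was below that of all tested genes. POLD4, the smallest subunit of polymerase delta, fell from 519, 554 and 556 in the control to 314, 387 and 368 with sh1 and 218, 192 and 172 with sh6. It thus moved against POLD1, 1.52-fold lower with sh1 (adjusted p = 1.23e-06) and 2.80-fold lower with sh6 (adjusted p = 1.62e-14). Of 12 further deoxynucleotide enzymes 4 rose (33.3%, against 34.2% of all tested genes) and 5 fell (41.7%, against 33.6%) with sh6. CTPS1, the CTP synthase, rose by 0.60 with sh1 and 0.47 with sh6, and RRM2B, the alternative small subunit of ribonucleotide reductase, fell by 0.16 (adjusted p = 0.0495) with the one hairpin and by 0.46 (adjusted p = 8.56e-07) with the other.

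Among the partners and opponents of E2F, RB1 itself was near the floor, with at most 12.9 normalised counts in a library, and was not tested. Of the 15 tested genes of the E2F, RB and DREAM list, which also holds subunits of the DREAM repressor, 7 rose and 3 fell with sh6, and 5 rose and 7 fell with sh1. The share called with sh6 was 66.7%, at the 67.8% of all tested genes, and with sh1 it was 80.0%, against 58.9%. TFDP1, the DNA-binding partner of E2F factors, rose from 4868, 4810.3 and 5195 to 7491, 7095 and 7770.5 with sh1 and 7239, 6859.6 and 7297 with sh6 (log2 0.58 and 0.52). RBL2, the p130 pocket protein, fell from 2693, 2699 and 2652 to 2307, 2217 and 2193 with sh1 and 1256, 1291 and 1238 with sh6 (log2 -0.25 and -1.05). RBBP4, a histone-binding subunit that is part of DREAM and of the chromatin assembly factor, was lowest with sh1, at 3603, 3549 and 3542 against 7015, 7467 and 7173 in the control (2.03-fold lower, and 1.27-fold lower with sh6). Each of these changes had an adjusted p of 1.26e-04 or less.

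Among 24 tested kinases, cyclins and inhibitors of G1 and S phase, 11 rose (45.8%) and 8 fell (33.3%) with sh6. With sh1, 10 rose (41.7%) and 5 fell (20.8%). Over all tested genes, 34.2% rose and 33.6% fell with sh6, and 29.0% rose and 30.0% fell with sh1. CCND1, which encodes cyclin D1, rose from 1229, 1215 and 1383 to 5289, 4789 and 5184 with sh1 and 5564, 5681 and 5947 with sh6, a log2 change of 1.94 and 2.11. CDKN2B, an inhibitor of the cyclin D kinases, fell by 0.73 and 1.21 on the log2 scale, and CDKN1B, an inhibitor of the cyclin E kinase, rose by 0.56 and 0.57. Of 25 further E2F targets 14 rose and 4 fell with sh6, and 7 rose and 8 fell with sh1. HMGB2, a chromatin protein, rose by 1.23 and 1.90 and STMN1, which encodes stathmin, by 1.09 and 1.55.

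Genes of mitosis and G2 rose with sh6 as well. Of 42 such genes 35 rose (83.3%, against 34.2% of all tested genes) and 2 fell (4.76%, against 33.6%) with sh6. With sh1, 14 rose (33.3%, against 29.0%) and 4 fell (9.52%, against 30.0%). Between the hairpins 32 were higher (76.2%, against 30.8%) and 3 lower (7.14%, against 28.9%) with sh6 than with sh1. CDC25B, the mitotic relative of CDC25A, was at 1145, 1044 and 1030.5 in the control, 2009.7, 2056 and 2056 with sh1 and 2355, 2177 and 2239.8 with sh6. It rose with each hairpin, by 0.89 and 1.03.

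In the control cells the 59 genes covered a wide range of abundance per kilobase of exon. PCNA stood highest, at 4093 normalised counts per kilobase, followed by TYMS at 1857, SLBP at 1317, DNMT1 at 1307 and RRM2 at 1227. E2F7 was lowest, at 56.0, below POLE at 79.4, GINS3 at 80.9, CDC25A at 87.1 and UHRF1 at 98.0. Of the 59 genes 19 have exons that overlap a gene on the other strand, and 9 have named pseudogene copies in the annotation, 16 in all, whose reads the counting may have divided. By this measure the 5 least abundant genes were all among those that rose with sh6, and the 5 most abundant included 1, DNMT1. By mean control count alone, TIPIN (276) and POLE2 (302.5) were lowest, and neither rose with sh6.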

How the data were processed

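The values are variance-stabilised and log2-like, made by the authors and deposited as 1 table whose name calls it batch-corrected. Cutadapt, STAR, Salmon, DESeq2 and hg19 are listed in the submitters' processing notes without versions or order, and strand treatment was not stated in the sources used here. Groups were read from sample titles. The transformation was inverted to normalised counts with the table's floor of 5.02. The steps of low values gave the worth of 1 read per library, hence the depths, with 76.4% to 80.2% of low values whole within 0.05. Folds compare mean normalised counts; log2 changes subtract deposited values and understate changes of low genes.

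The test was limma 3.58.1 (R 4.3.3), two-sided, with eBayes and a mean trend, on 9 libraries in 3 groups. It covered the 13165 genes with a mean 1 or more above the floor (normalised count 16.2), over which Benjamini-Hochberg adjustment ran. A run on simulated counts had few changed genes and an assumed spread, so it cannot vouch for the calls made here. The genes, lists and naming rule were chosen with earlier results of these data known. Full values go to members called with both hairpins and the 6 largest changes each way per comparison, and up to 4 genes of each list called with both are named. Exon lengths and overlaps used GENCODE release 29 (GRCh38), another build than that of the authors. Each length is that of the merged exons of all annotated transcripts, and values per kilobase depend on it. Alternatives were other filters, scalings, variance priors, library weights, thresholds, a replicate block, voom on recovered reads and leaving out each library. Python 3.11.15 with pandas 2.3.3, numpy 2.4.6 and matplotlib 3.10.9 did the rest.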

Additional observations from a re-analysis of the deposited data

Results flagged for a closer look

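Results were flagged where the effects of the hairpins went in opposite directions against the same control. Lower with sh1 and higher with sh6 were 4 of the 59 genes (6.78%, against 3.33% of all tested genes). The reverse held for 0 of them (3.06% of all tested genes), so opposite calls are not particular to these genes. For such genes the limma difference of the hairpins (Benjamini-Hochberg adjusted) spans both called changes, so its passing adds no further support. ORC1 was higher with sh6 than with sh1 by a log2 of 0.62 (adjusted p = 3.10e-09), with all 3 sh1 libraries below and all 3 sh6 libraries above the control. CDC6 differed by 0.34 (adjusted p = 3.67e-06), POLE by 0.84 (adjusted p = 1.61e-12) and TK1 by 0.55 (adjusted p = 4.29e-09), each in the same order of groups. The groups of 3 libraries are too small for the check of single outlying libraries that was used.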

How the results depend on the processing

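Of 139 results for single genes that passed the test, 100 kept their call in every alternative, 39 lost it in at least 1 of up to 20, and 1 changed sign: PCNA in sh6 against sh1 was -0.0094 after quantile normalisation. Other counts of these genes that moved by over 1.5 times were small ones. At an adjusted p under 0.01, 6 genes were lower for the mean of both hairpins (10 in the reported fit) and 1 lower with both (2). Lower with sh6 than with sh1 were 5 after quantile normalisation, 5 with only the groups compared and 6 without the second sh6 library (3). With library weights 4 were lower with both and 1 was higher with sh1 and lower with sh6 (2 and 0). The cause was not tested. Leaving out each library in turn, 12 to 18 genes rose and 11 to 14 fell with sh1, 31 to 33 rose and 3 to 5 fell with sh6, and 21 to 29 and 8 to 10 did for their mean. Between the hairpins 31 to 35 were higher with sh6 and 2 to 6 lower, 11 to 16 and 2 to 3 moved the same way with both, and 3 to 5 and 0 to 0 moved oppositely. With the replicate number as a block, 18 rose and 14 fell with sh1, 33 and 5 with sh6, 27 and 10 for the mean, 34 and 4 for sh6 against sh1, 16 and 3 with both, and 4 and 0 oppositely. Whether the numbers pair the libraries cannot be told, because the deposited values are named batch-corrected and a shared batch may have been removed. The correlations of deviations in the 9 same-number pairs ran from -0.13 to 0.18. Of 18 comparisons, 9 were best with the own number. At these depths each of the 59 genes had 224 or more normalised counts in every library, and 3 libraries per group limit the precision.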
